A study of Mus musculus with 6 samples.

Results

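The urea cycle and the glutamine enzymes next to it were followed through 9 genes of primary mouse hepatocytes: Cps1, Otc, Ass1, Asl, Arg1, Nags, Glul, Gls2 and Glud1. They were chosen by symbol, and all 9 were found among the 19764 genes of the table and passed the filter on low counts that left 12293 genes for testing. Cells of Bl6/N mice were plated at 400000 per well and starved for 16 h in medium with 5 mM glucose. Every well then received, for 8 h, the glucocorticoid corticosterone at 1 µM together with the PPARα agonist WY-14643 at 10 µM. The 3 Control libraries had vehicle besides, and the 3 TNF libraries had 1 ng/ml TNF, an inflammatory cytokine, so both groups share the starvation medium and both ligands. Polyadenylated RNA was sequenced. The labels give no age or sex, and do not say whether a replicate is an animal or a culture. The spread that p-values measure may therefore be technical.

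The urea cycle turns ammonia, which is toxic, into urea for excretion, and runs in full mainly in hepatocytes. Its early steps lie in mitochondria: Cps1 joins ammonia and bicarbonate to carbamoyl phosphate, needs the activator N-acetylglutamate that Nags makes, and hands its product to Otc. Ass1, Asl and Arg1 complete the cycle in the cytosol. Glud1 and Gls2 release ammonia from glutamate and glutamine, and Glul does the reverse by fixing ammonia into glutamine. In liver the cycle enzymes and Gls2 belong mostly to periportal hepatocytes, and Glul to a narrow rim of cells at the central vein.

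With TNF, Cps1, Arg1, Glud1, Nags and Gls2 fell, while no call was made for Otc, Asl, Glul and Ass1. The verbs rose and fell are kept for genes with a Benjamini-Hochberg adjusted p under 0.05 in the blocked fit, a limma fit that pairs Control and TNF libraries of the same replicate number. "Unpaired" denotes the same fit by group alone, without the pairing. The unpaired fit was the primary fit, and the blocked fit was run as an alternative to it. The pairing was inferred from these same data, so every member named as having fallen depends on that inference. Levels are CPM, read counts scaled to library size, as mean ± SD (n = 3), and changes are TNF minus Control on the log2(CPM + 1) scale. Among all tested genes 11.2% fell and 9.4% rose in the blocked fit (20.6% in all), against 5 of the 9 members that fell and none that rose. The members were chosen with earlier results of these data known, so this comparison describes them and is not independent support. The unpaired limma fit called 0.431% of all genes (0.358% higher and 0.0732% lower with TNF) and 0 of the 9 members, 4 of them having an unadjusted p under 0.05, and limma-voom without the pairing also called 0. The median change of the members was -0.24, which is the value of Ass1, a row that covers little of its gene. It was -0.22 over the other 8 members and -0.01 over all tested genes, and 53.9% of all tested genes had a negative change. In bulk RNA, fewer cells of a type and less RNA per cell cannot be told apart.

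Promoter sequence from RefSeq (build GRCm38.p6, the assembly of mm10) was at hand for 5 of the 9 members. The 250 bases before the annotated start are printed for Glud1 and Nags, which fell, and for Otc and Glul, which did not pass, so that members on either side of the test can be set side by side; Ass1 is left out for the reason given with its values. Capitals mark every match, on either strand, to 7 short motifs: the CCAAT box (CCAAT), the GC box (GGGCGG), the C/EBP core (TTGCNNAA), an NF-κB core (GGG and TTTCC with NN between them), a glucocorticoid receptor half-site (AGAACA), an HNF4 half-site (CAAAG) and the TATA box (TATAAA). Each sequence runs 5′ to 3′ on the gene's own strand, which is the plus strand for all 4.
Glud1, chr14:34310477-34310726: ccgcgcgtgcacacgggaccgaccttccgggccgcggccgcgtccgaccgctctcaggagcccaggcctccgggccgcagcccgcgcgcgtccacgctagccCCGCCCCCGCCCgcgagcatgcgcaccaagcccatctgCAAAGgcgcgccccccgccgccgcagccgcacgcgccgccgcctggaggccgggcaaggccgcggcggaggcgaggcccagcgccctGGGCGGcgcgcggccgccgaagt
Nags, chr11:102145263-102145512: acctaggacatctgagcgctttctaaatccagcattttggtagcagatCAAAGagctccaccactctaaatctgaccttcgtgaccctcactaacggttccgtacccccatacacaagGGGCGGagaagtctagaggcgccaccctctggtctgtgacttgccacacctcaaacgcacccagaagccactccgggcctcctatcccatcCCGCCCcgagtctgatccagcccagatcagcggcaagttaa
Otc, chrX:10252055-10252304: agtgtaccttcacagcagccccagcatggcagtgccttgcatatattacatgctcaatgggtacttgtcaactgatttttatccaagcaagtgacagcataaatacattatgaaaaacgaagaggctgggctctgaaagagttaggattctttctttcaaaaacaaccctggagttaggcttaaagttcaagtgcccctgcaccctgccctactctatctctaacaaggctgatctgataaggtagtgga
Glul, chr1:153899679-153899928: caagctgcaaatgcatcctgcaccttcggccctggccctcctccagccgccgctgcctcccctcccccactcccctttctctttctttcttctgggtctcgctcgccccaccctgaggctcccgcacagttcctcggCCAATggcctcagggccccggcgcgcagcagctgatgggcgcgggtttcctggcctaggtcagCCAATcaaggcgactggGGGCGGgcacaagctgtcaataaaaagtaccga

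The 4 windows differed widely in base composition. Glud1 was 82.0% G and C with 46 CpG, Glul 64.8% with 15, Nags 55.6% with 11 and Otc 43.6% with 1, where the median over 32851 promoter windows of this length was 52.4% with 6. The GC box stood 3 times in Glud1, 2 times in Nags and once in Glul, and was present in 32.7% of all windows. The HNF4 half-site stood once each in Glud1 and Nags (48.6% of all windows). The CCAAT box was found 2 times in Glul, at 113 and 50 bases before the start, and in 33.8% of all windows. The Otc window matched none of the 7 motifs, and no printed window held the C/EBP core (9.56% of all windows), the NF-κB core (1.41%), the receptor half-site (16.1%) or the TATA box (12.4%). The matches did not overlap each other. They describe letters in these windows and say nothing of whether a factor binds there.

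Cps1, on chromosome 1 (mm10, 67123027 to 67231267, plus strand) and counted over its whole span of 108241 bases, fell furthest of the members. Its level was 1392, 2880 and 1654 CPM in Control 1, 2 and 3, and 482, 1076 and 654 CPM in TNF 1, 2 and 3. Every TNF library lay below every Control library, although replicate 2 was high and replicate 1 low in both groups. TNF libraries held 34.6%, 37.4% and 39.5% of the Control level of the same number, and the group mean went from 1975 ± 794 to 737 ± 306 CPM. The change was -1.43 (blocked SE 0.04, 95% interval -1.51 to -1.35), with a limma adjusted p of 2.71e-11 blocked and 0.204 unpaired. These values rest on 10072 to 69614 reads per library, so counting error is small beside the spread between replicate numbers.

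Among the 2304 genes with a mean of at least 100 CPM, Cps1 had the largest fall. The next was Igfbp1 (-1.30), which encodes an insulin-like growth factor binding protein, and Arg1 (-0.93) ranked 4 among these genes. Over all 12293 tested genes Cps1 ranked 3 by size of fall, Arg1 24 and Glud1 100. Nags ranked 908, Gls2 1808, Otc 3150, Asl 4468 and Glul 4559, so the fall was uneven among members of the same pathway.

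**Figure D1:**
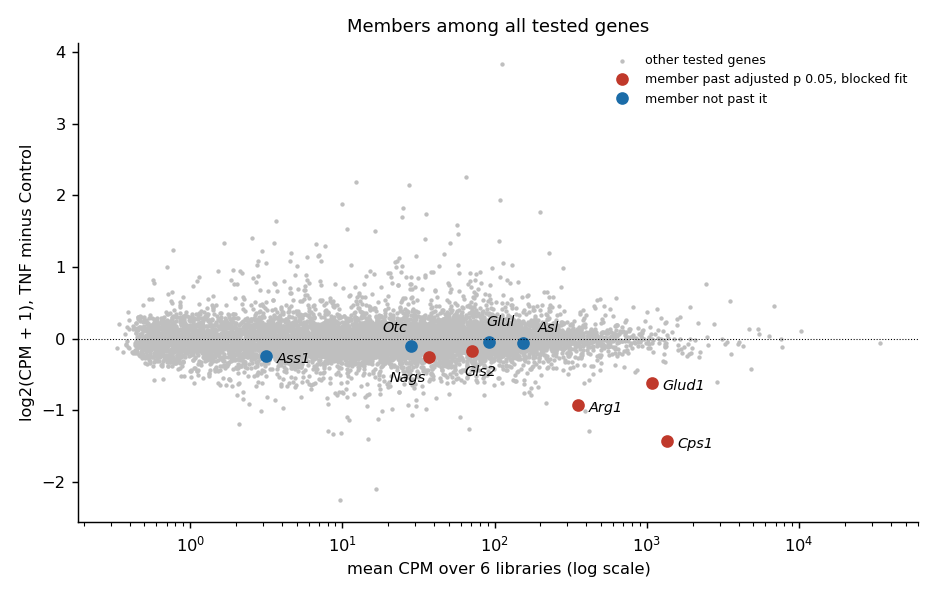
Change with TNF (y axis, log2(CPM + 1), TNF minus Control) against mean level (x axis, CPM, log scale) for 12293 tested genes, with the 9 members coloured by whether the blocked fit called them at 0.05. Cps1 at -1.43 lies below every other gene with a mean of at least 100 CPM, while Glul and Asl lie near 0.

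Nags makes N-acetylglutamate, without which Cps1 is inactive. The gene (chromosome 11, 102145513 to 102149528, plus strand) was at 42.2, 43.1 and 36.5 CPM in Control and 35.6, 34.3 and 31.2 CPM in TNF. The TNF libraries lay below all Control libraries by a small margin, with 79.5% to 85.5% of the Control level of the same number. The change was -0.26 (blocked SE 0.05), with a limma adjusted p of 0.00290 blocked and 0.467 unpaired.

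Otc, which makes citrulline from carbamoyl phosphate and ornithine, did not follow Cps1. The gene (chromosome X, 10252305 to 10321024, plus strand) was at 41.9, 21.8 and 24.3 CPM in Control and 37.8, 18.6 and 25.2 CPM in TNF. Replicate 1 was the highest in both groups, the groups overlapped, and pair 3 was slightly higher with TNF. The change of -0.10 had a blocked 95% interval of -0.25 to 0.04 and an unpaired one of -0.82 to 0.61, with limma adjusted p of 0.323 and 0.999. Its unpaired change was 0.18 without Control 1 and 0.13 without TNF 2. The change of Cps1 relative to Otc, in which gene length cancels, was -1.38, -1.19 and -1.39 (log2 of the ratio, TNF against Control) in the 3 pairs. It was picked after the values were seen and was not tested.

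Arg1, the cytosolic arginase that releases urea from arginine, fell next furthest. The gene (chromosome 10, 24915207 to 24927470, minus strand) was at 335, 576 and 484 CPM in Control and 194, 284 and 244 CPM in TNF. No TNF library reached the lowest Control library. The mean went from 465 ± 121 to 241 ± 45.1 CPM, a change of -0.93 (blocked SE 0.04), with a limma adjusted p of 2.11e-09 blocked and 0.173 unpaired. The fall in pair 1 (-0.79) was smaller than in pairs 2 and 3 (-1.02 and -0.98).

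Asl, which splits argininosuccinate into arginine and fumarate, stayed close to its Control level. The gene (chromosome 5, 130011503 to 130024331, minus strand) was at 173, 155 and 145 CPM in Control and 170.3, 147 and 137 CPM in TNF. The groups overlapped, and each pair was lower with TNF by little. The change was -0.06, with a blocked 95% interval of -0.13 to 0.01 and an unpaired one of -0.30 to 0.18 (limma adjusted p 0.265 blocked, 0.995 unpaired). Without Control 1 or TNF 3 the unpaired change was 0.01. The change of Arg1 relative to Asl, enzymes of consecutive steps, was -0.77, -0.94 and -0.91 in the 3 pairs, again picked after the values were seen and not tested.

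Ass1, which joins citrulline and aspartate, could not be read as a gene level here. Its row covered only 79 of the 50401 bases of its span (chromosome 2, 31470270 to 31520670, plus strand), although no other gene of the table overlaps it, and the reason is not known here. Reads over those bases numbered 66, 77 and 75 for Control and 65, 40 and 65 for TNF, or 3.65, 3.19 and 3.65 against 3.11, 2.15 and 3.20 CPM. The groups overlapped, with 1 TNF library just inside the Control range. The change of -0.24 had a blocked 95% interval of -0.51 to 0.02 and a limma adjusted p of 0.191 blocked and 0.874 unpaired. Over the table, 58 genes were counted over under 1 percent of their span.

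**Figure D2:**
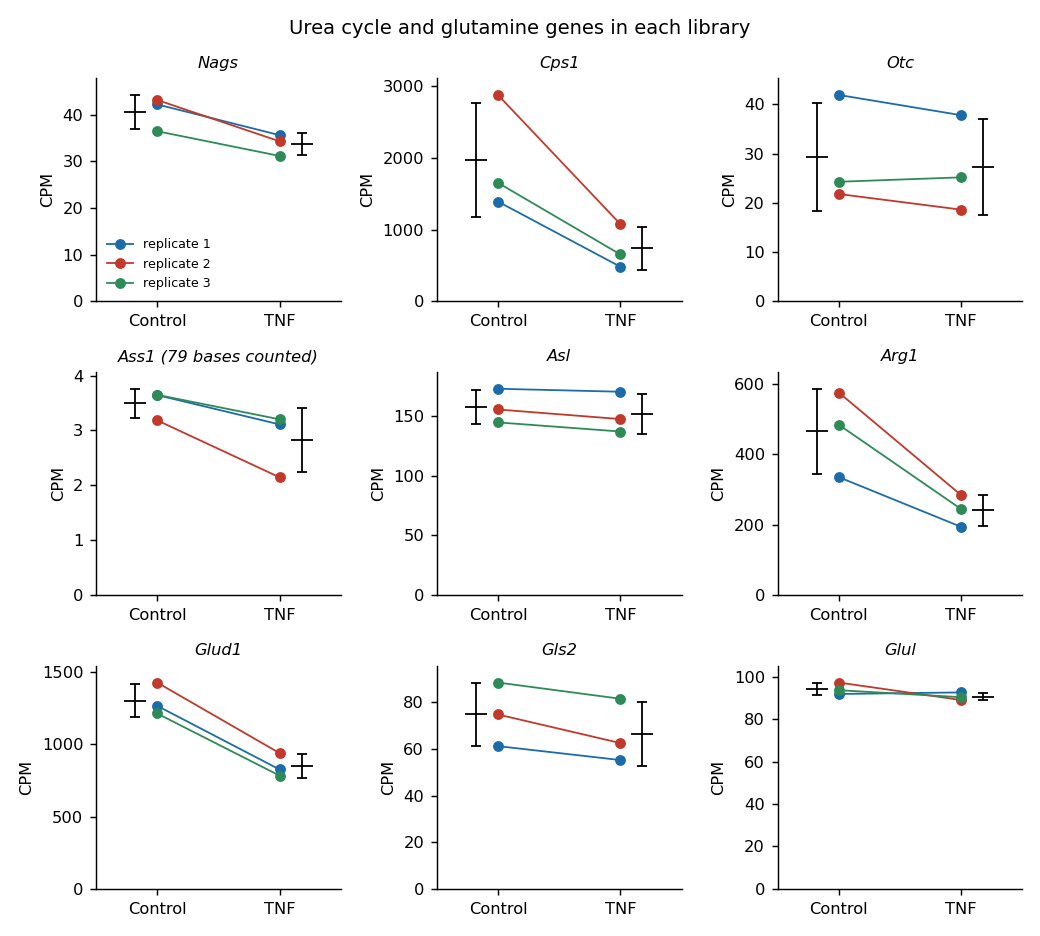
CPM (y axis, from 0) of the 9 members in Control and TNF (x axis), 1 panel per gene, with lines joining libraries of the same replicate number and black marks giving the mean ± SD of 3 libraries. All 3 lines slope down steeply for Cps1, Arg1 and Glud1, while the lines of Asl and Glul are nearly flat and those of Otc are set apart by replicate number.

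Glud1, the mitochondrial glutamate dehydrogenase that frees ammonia from glutamate, fell by a near equal amount in every pair. The gene (chromosome 14, 34310727 to 34345033, plus strand) was at 1266, 1427 and 1213 CPM in Control and 825, 939 and 783 CPM in TNF. The groups were far apart, and the pair changes were -0.62, -0.60 and -0.63. The change of -0.62 (blocked SE 0.03) had a limma adjusted p of 9.70e-09 blocked and 0.0903 unpaired, the lowest unpaired value among the members.

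Gls2, the liver-type glutaminase, differed more between replicate numbers than between groups. The gene (chromosome 10, 128194635 to 128210004, plus strand) was at 61.3, 74.8 and 88.5 CPM in Control and 55.3, 62.6 and 81.6 CPM in TNF. The groups overlapped, and replicate 3 was the highest in both. Each pair was lower with TNF, by -0.15, -0.25 and -0.12. The change of -0.17 had a limma adjusted p of 0.0112 blocked and 0.954 unpaired, and the blocked call was lost without replicate 2 (adjusted p 0.115). Of its span, 95 bases that overlap Spryd4 were not counted.

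Glul, the glutamine synthetase, was the most even member between libraries. The gene (chromosome 1, 153899929 to 153909723, plus strand, all but 108 bases counted) was at 91.9, 97.3 and 93.6 CPM in Control and 92.6, 89.0 and 90.3 CPM in TNF. The groups overlapped, and pair 1 was slightly higher with TNF. The change was -0.06, with a blocked 95% interval of -0.14 to 0.03 and an unpaired one of -0.19 to 0.08 (limma adjusted p 0.381 blocked, 0.958 unpaired). The change of Glud1, which releases ammonia, relative to Glul, which binds it, was -0.63, -0.48 and -0.58 in the 3 pairs. It too was picked after the values were seen and was not tested.

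**Figure D3:**
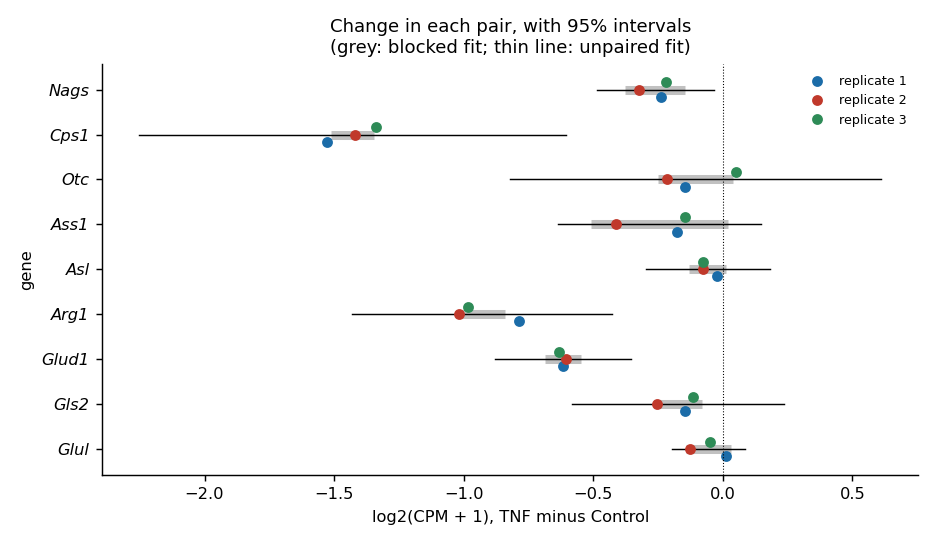
Change with TNF (x axis, log2(CPM + 1), TNF minus Control) of each member (y axis), with 1 point per pair of replicate numbers, a grey bar for the 95% interval of the blocked fit and a thin line for that of the unpaired fit. The points of Cps1, Arg1, Glud1, Nags and Gls2 lie below 0 in all 3 pairs with blocked intervals below 0, and the blocked intervals of Otc, Ass1, Asl and Glul include 0.

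Of the 9 members 7 were lower with TNF in all 3 pairs, where 27.7% of all tested genes were lower and 23.4% higher in all 3. In 4 members, Cps1, Arg1, Nags and Glud1, every TNF library lay below every Control library, as in 6.66% of all tested genes, and in 6.59% it lay above. For these 4 an exact two-sided permutation test of the 3 and 3 libraries gave p = 0.1, the smallest that this design allows. In the authors' deposited table the same 5 members had an adjusted p under 0.05, as had 15.2% of its 19764 genes (8.32% lower with TNF), with log2 fold changes of -1.43 for Cps1, -0.93 for Arg1, -0.62 for Glud1, -0.27 for Nags and -0.17 for Gls2.

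The members also differed from each other in how they varied between replicate numbers, and this variation was alike in both groups. Cps1 was higher in replicate 2 than in replicate 1 by 1.05 in Control and 1.16 in TNF (log2). Otc was lower in replicate 2 than in replicate 1 by almost as much, with differences of -0.91 and -0.98. Arg1 went with Cps1 (0.78 and 0.55), and Glul hardly differed (0.08 and -0.06). For Otc the spread between replicate numbers was several times its change with TNF. Replicate 1 also stood apart in the pericentral enzyme Cyp2e1, with 164, 505 and 803 CPM in Control and 165, 401 and 802 CPM in TNF, and in the summed hepatocyte markers given below. The part of these differences in the members' levels was not tested.

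**Figure D4:**
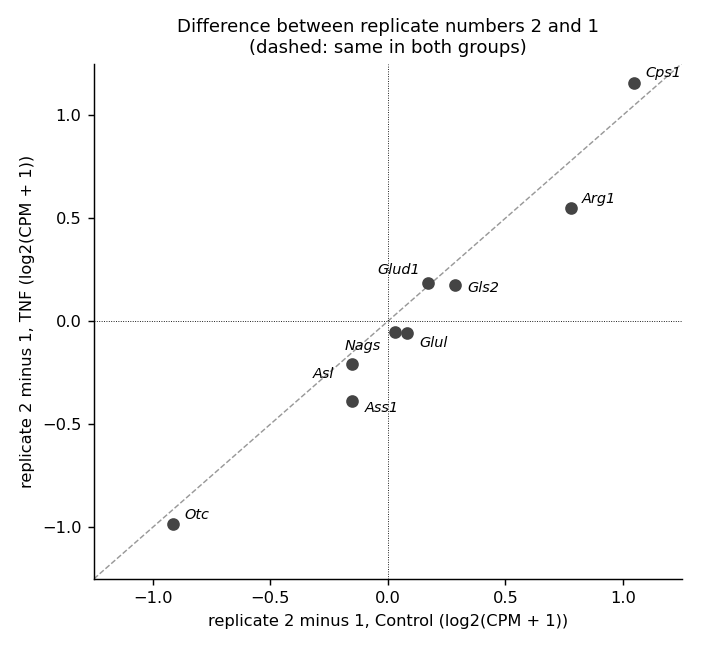
Difference between replicate numbers 2 and 1 in Control (x axis) and in TNF (y axis), both in log2(CPM + 1), with 1 point per member and a dashed line where the differences are equal. Cps1 at 1.05 and 1.16 and Otc at -0.91 and -0.98 lie at opposite ends, and the other points lie between them near the dashed line.

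Levels were compared between genes only per length. Per kilobase of annotated exon (GENCODE M21), the mean Control level was 356 CPM for Cps1, 309 for Glud1, 209 for Arg1, 32.6 for Asl, 28.4 for Glul, 21.6 for Gls2, 14.3 for Nags and 6.92 for Otc. In that order Cps1, with 251 to 518 CPM per kilobase of exon in the Control libraries, overlapped both Glud1 (288 to 339) and Arg1 (150.5 to 258), while Glud1 and Arg1 did not overlap, nor did any later neighbours. In TNF the level per kilobase of exon was 196, 223 and 186 CPM for Glud1 and 86.8, 194 and 118 CPM for Cps1, so that Glud1 was above Cps1 in each of the 3 libraries. In Control, Glud1 was already above Cps1 in replicate 1 (301 against 251 CPM per kilobase of exon) and below it in replicates 2 and 3. Counts included intronic reads, which makes this scale too high for genes rich in them. Per kilobase of counted span the Control means were 37.9 CPM for both Glud1 and Arg1, 18.2 for Cps1, 12.3 for Asl, 10.1 for Nags, 9.73 for Glul, 4.90 for Gls2 and 0.427 for Otc.

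By correlation of log2(CPM + 1) with Cps1 over the 6 libraries, the most similar of 8808 genes with a mean of at least 10 CPM were Srsf4, Aldh6a1, Stx2, Pxmp4 and Tns1 (Pearson's r between 0.992 and 0.998). Arg1 stood at rank 51 (r = 0.97) and Glud1 at rank 140 (r = 0.94), while Otc had r = -0.37 and Asl -0.04. The genes most like Glul were Acp6, Bag4, Susd6, Lsm11 and Ppp1r35 (r between 0.942 and 0.975). These are descriptions over 6 libraries that share both the TNF contrast and the differences between replicate numbers.

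Of 20 listed transport and co-substrate genes of the cycle 17 were tested, of which 8 fell, 2 rose and 7 did not pass, with a median change of -0.14 against -0.01 over all tested genes. When a pair was left out, 6 to 8 fell and 2 rose. The counts of this list and of those below stand against 11.2% of all tested genes that fell and 9.4% that rose. No list was tested as a set against these shares. Slc25a15, which carries ornithine into mitochondria, fell from 95.6 ± 5.10 to 74.1 ± 7.90 CPM (-0.37). Slc25a13, the aspartate carrier that feeds Ass1, fell from 145 ± 25.6 to 115 ± 13.2 CPM (-0.32), and the dicarboxylate carrier Slc25a10 from 48.3 ± 7.05 to 38.3 ± 6.98 CPM (-0.33). Sirt3, a mitochondrial deacetylase, fell by 0.44. The 2 genes that rose were Arg2, the mitochondrial arginase, from 1.23 ± 0.759 to 3.16 ± 1.14 CPM (0.91), and the arginine importer Slc7a1 (0.34). Arg2 thus went the other way from Arg1, at a level that remained low. The glycerol and urea channel gene Aqp9 was at 179.4 ± 6.26 and 179.1 ± 11.7 CPM and did not pass.

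Of 25 tested genes (30 listed) for glutamine, glutamate and ammonia handling, 4 fell, 5 rose and 16 did not pass. Their median change was 0.05, and of all tested genes 11.2% fell and 9.4% rose. When a pair was left out, 4 to 5 fell and 4 to 7 rose. The genes named next are from the fit with all pairs. Those that fell were the alanine aminotransferases Gpt2 (998 ± 313 to 736 ± 229 CPM, -0.44) and Gpt (202 ± 4.36 to 161 ± 7.56 CPM, -0.33), and the amino acid transporters Slc38a4 (805 ± 72.2 to 608 ± 39.0 CPM, -0.40) and Slc38a3 (-0.20). Those that rose included the amino acid transporter Slc7a5 (0.34), Gclm (0.26), a subunit of the enzyme that starts glutathione synthesis, and Ctps (0.22), which uses glutamine to make CTP. The aspartate aminotransferases Got1 (164 ± 20.4 and 167 ± 22.8 CPM) and Got2 (360.5 ± 17.4 and 344 ± 25.8 CPM) did not pass.

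Of 16 tested genes (22 listed) of the ornithine, proline and arginine branches, 3 fell, 1 rose and 12 did not pass. Their median change was 0.05, where 11.2% of all tested genes fell and 9.4% rose. The proline-degrading Aldh4a1 fell by 0.40, Agmat by 0.37 and Prodh2 by 0.25 on the log2 scale, and Aldh18a1, which starts proline synthesis, rose by 0.15. The last call was lost without replicate 1 and without replicate 2, where 0 of the genes rose, and that of Prodh2 without replicate 2. Odc1, which turns ornithine into putrescine, was at 238 ± 11.3 and 249 ± 5.87 CPM and did not pass.

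Of 18 regulators that have been tied to urea cycle genes, 6 fell, 3 rose and 9 did not pass, with a median change of -0.09. The nuclear receptor Hnf4a, a main factor of hepatocyte identity, was at 623, 558 and 515 CPM in Control and 459, 402 and 393 CPM in TNF. Klf15, a fasting-induced factor of amino acid breakdown, fell from 64.0 ± 9.52 to 41.9 ± 8.10 CPM (-0.61), the bile acid receptor Nr1h4 by 0.53 and the glucagon receptor Gcgr by 0.41. Trp53 (0.43; limma adjusted p 0.0371 unpaired), Ctnnb1 (0.19), which encodes β-catenin, and Nfya (0.18), a subunit of the factor that binds CCAAT boxes, rose. The call of Nfya was lost without any 1 of the 3 replicate numbers. The C/EBP genes Cebpa (170.3 ± 41.7 and 173 ± 30.4 CPM) and Cebpb (207 ± 22.0 and 201 ± 27.4 CPM) and the receptor genes Nr3c1 (104 ± 13.6 and 99.1 ± 14.1 CPM) and Ppara (118 ± 17.8 and 125 ± 19.5 CPM) did not pass.

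Genes of both lobule zones fell in part. Of 20 tested genes listed as periportal 9 fell, 2 rose and 9 did not pass, with a median change of -0.17. Whether each listed gene belongs to its zone was not checked in these data. When a pair was left out, 7 to 11 fell and 1 to 3 rose. Cyp8b1 (-1.40; limma adjusted p 0.0229 unpaired), G6pc (-1.01), the histidine-degrading Hal (-0.77) and Etnppl (-0.59) fell most. The 2 that rose were Sox9 (0.58) and Ctsc (0.17), while 1 gene of the list rose without replicate 1 and 1 without replicate 2. Of 16 tested pericentral genes (20 listed) 6 fell, 1 rose and 9 did not pass, with a median change of -0.11. Cyp1a2 fell from 501 ± 120 to 334 ± 83.5 CPM (-0.59), followed by Tbx3 (-0.36), Rnf43 (-0.30) and Gulo (-0.29). Znrf3 rose by 0.21, a call lost without replicate 2 and without replicate 3. Without replicate 2 only 3 of the pericentral genes fell. The call of Rnf43 was lost without any 1 of the 3 replicate numbers and that of Tbx3 without replicate 2 or 3. Rhbg and Slc1a2, which share the rim around the central vein with Glul, were low in these cells. Rhbg was at 1.59 ± 0.341 and 2.12 ± 0.713 CPM and Slc1a2 at 2.26 ± 1.55 and 2.41 ± 1.40 CPM. Neither passed, nor did Oat, whose level was higher (41.7 ± 14.9 and 37.8 ± 11.1 CPM). Whether the 2 zones differed in their response was not tested.

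**Figure D5:**
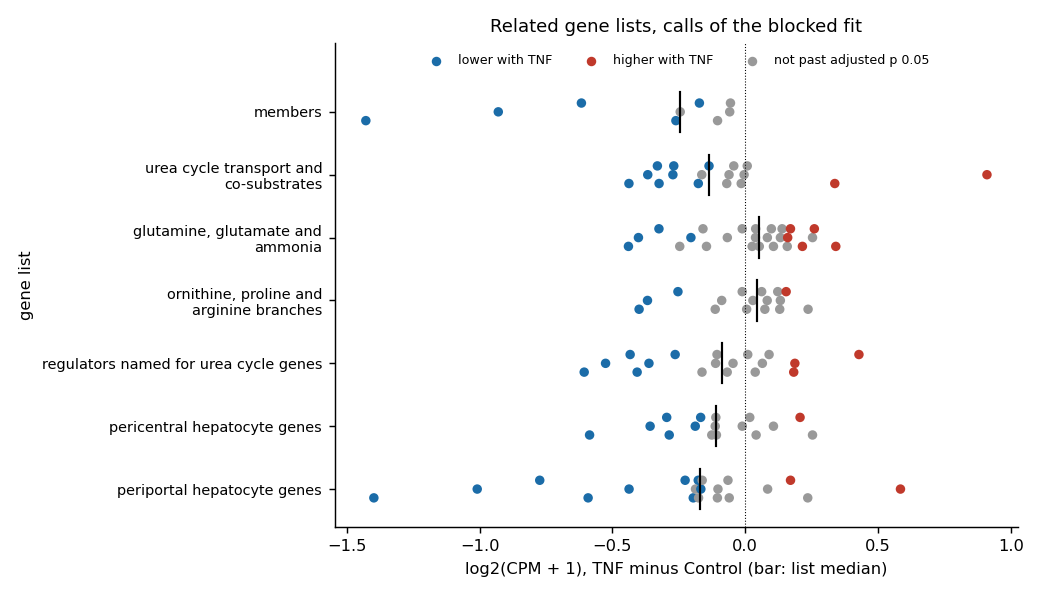
Change with TNF (x axis, log2(CPM + 1), TNF minus Control) of every tested gene in the 9 members and 6 related lists (y axis), coloured by the call of the blocked fit, with a black bar at each list's median. The members have the lowest median (-0.24, or -0.22 without Ass1), and the transport list holds both falls and the rise of Arg2 (0.91).

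Libraries held 17612060 to 25114289 reads over genes. The chemokine gene Ccl2, a known TNF target, changed by 3.83 (limma adjusted p 0.0106 unpaired). Summed over 9 hepatocyte markers, levels were 36892 to 55278 CPM in Control and 34965 to 50540.1 in TNF, lowest in replicate 1, and 5 of the 9 fell, Ahsg (-0.60) and Hnf4a most, while Alb did not pass. The other sums ranged, in Control and TNF, from 183 to 308 and 216 to 353 CPM for 10 macrophage markers, 81.1 to 150.3 and 81.5 to 143 for 8 endothelial, 18.7 to 68.5 and 20.2 to 46.4 for 7 stellate, and 52.5 to 62.3 and 55.7 to 75.7 for 8 cholangiocyte markers. The macrophage sum came from Cd68 and Cd14, and the defining Kupffer cell markers Clec4f, Timd4 and Vsig4 were each under 0.05 CPM on average. The 7 lymphocyte and neutrophil markers summed to at most 0.387 CPM in any library, Nkg7 and Ly6g having 0 reads. Of these other lists Cd14, Oit3 and Sox9 rose and Stab2, Reln and Pkhd1 fell. The call of Stab2 was lost without any 1 of the 3 replicate numbers, that of Reln without replicate 2 or 3 and that of Pkhd1 without replicate 1 or 2. The call of the hepatocyte marker Ttr was lost without replicate 2 or 3. Their part in the members' changes was not tested.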

How the data were processed

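Groups and replicate numbers came from sample titles. Per the submitters' processing notes, STAR 2.6.1a and the mm10 build were used; how genes were counted, and with which strand setting, is not given in the sources used here. Each library's deposited values are log2 CPM to which the authors had added a prior. Per gene, the authors' deposited table further holds the score of a likelihood ratio test, its p-value (raw and adjusted) and a log2 fold change, whose model is not given in the sources used here. For 85.0% of genes the counted length is the whole span, introns included.

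With the shared floor (-3.35, or 0.098 CPM) subtracted, 100.0% of values came out as whole reads (tolerance 0.001 reads) once divided by what 1 read is worth in that library. The authors' scaling was kept. A count of 0 allows up to 3 reads (0.124 to 0.166 CPM; counting error only). A gene was tested with at least 10 reads (at the median library's size) in 3 libraries and 15 in all. The deposited unit was log2 CPM, for which limma had been planned, and this was kept although whole reads were recovered. Values of log2(CPM + 1) were fitted with limma 3.58.1 (R 4.3.3) and a trended prior, two-sided. Benjamini-Hochberg adjustment was over all tested genes. The fit was tested on simulated data.

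Same-numbered Control and TNF libraries deviated together from their group means (r 0.784 to 0.793 over genes). The r of other combinations (-0.472 to -0.335) largely follow from this, because deviations from a mean of 3 libraries sum to 0. The numbers in the titles were therefore taken to pair the samples in the blocked fit, though no label names what a number stands for. The primary fit was by group alone. The blocked fit has 2 residual degrees of freedom per gene and leans on the spread shared between genes. Libraries of a group differed beyond counting noise (chi-square over its degrees of freedom 23.4 to 42.0), so each counted as 1 sample.

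The members and gene lists were chosen with earlier results of these data known. All members are named; from each other list up to 4 genes per direction with the largest changes among those called, and genes of at least 100 CPM that were not called. Single marker genes, Cyp2e1, Rhbg, Slc1a2, Oat, Ttr and the changes of one member relative to another were named after their values were seen. Alternatives tried were other scaling, filters, pseudocounts, the deposited log2 values, limma-voom, the block, and leaving out libraries or pairs.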

Additional observations from a re-analysis of the deposited data

How the results depend on the processing

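The unpaired fit called 53 genes, and 31 without a filter. Leaving out a library gave 9 to 31 genes. Without Control 2 or Control 3 limma called 0 genes lower, with 307 and 490 lower genes at an unadjusted p under 0.05. With the replicate block the count was 2530, with median-of-ratios scaling 2572, without a filter 1743, with a pseudocount of 0.1 2497, with limma-voom 2520, and 2315, 1742 and 2203 without replicate 1, 2 and 3. The count of members called was 0 in the unpaired fit and in each of its alternatives without the block, with 3 or 4 members at an unadjusted p under 0.05. It was 5 in the blocked fit under each of these settings and 4 to 5 when a pair was left out, Gls2 being lost without replicate 2. Cps1, Arg1, Glud1 and Nags stayed past the threshold in all 7 alternatives with the block, with largest adjusted p (limma) of 4.08e-05, 0.000144, 0.000146 and 0.0346, and kept a negative sign in all 21 alternatives. Leaving out replicate 1 took the blocked adjusted p (limma) of Cps1 from 2.71e-11 to 2.39e-61 and that of Arg1 from 2.11e-09 to 1.21e-51. Fits without a pair hold fewer libraries and lean more on the spread shared between genes, so their smaller p-values are no stronger evidence. Unpaired changes without a call became positive for Otc without Control replicate 1 (0.175) and without TNF replicate 2 (0.129), and for Asl without Control replicate 1 (0.00968) and TNF replicate 3 (0.0113); with a library left out they ranged from -0.363 to 0.175 and from -0.145 to 0.0113, and the cause was not tested. Without a filter and with the block, 3 pericentral and 6 periportal genes fell, with more genes tested. Depth limits Ass1, with 40 to 77 reads per library.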
